A study of Mus musculus with 31 samples.

Results

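The miR-29 family of microRNAs was followed through 31 small RNA libraries from the right hippocampus of mice. Its members were the rows of the deposited count tables named for an arm of miR-29a, miR-29b or miR-29c, which gave 7 of the 1966 mature microRNAs in the tables. They are 3 arms from the 3′ side of their hairpins (mmu-miR-29a-3p, mmu-miR-29b-3p and mmu-miR-29c-3p) and 4 from the 5′ side (mmu-miR-29a-5p, mmu-miR-29b-1-5p, mmu-miR-29b-2-5p and mmu-miR-29c-5p); the prefix, which stands for the mouse, is left out below. All 7 had counts in every library and passed the filter on low counts in every comparison.

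All animals were of the C57Bl/6 J strain. They either lacked the serotonin transporter 5-HTT (KO), the carrier that clears serotonin from the synapse, or were wildtype (WT). Mice of both genotypes had exercise, corticosterone, which is the main glucocorticoid stress hormone of rodents, or water, and the treated animals were studied after 4 weeks. The groups were KO-exercise (n = 5), KO-corticosterone (n = 2), KO-water (n = 6), then WT-exercise with 5 animals, WT-corticosterone with 6 and WT-water with 7. The labels give neither age nor sex, and neither the promoter or exon changed in the KO nor the dose of corticosterone. They call the libraries biological replicates, so each was taken as 1 animal. The transporter mRNA is not among the features counted, so genotypes could not be verified from these counts.

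MicroRNAs are cut from a hairpin that carries a 5p and a 3p arm; usually 1 arm, the guide, is kept in the Argonaute complex and the other, the passenger, is mostly lost. A guide finds mRNAs through its seed, the bases near its 5′ end. The 3p arms are the guides of the miR-29 family and share their seed. The family is known for lowering collagens and other matrix proteins and the DNA methyltransferases Dnmt3a and Dnmt3b. In the mouse brain it rises as neurons mature after birth, and in mature neurons it restrains pro-apoptotic BH3-only genes.

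The 3 guides are shown first because their near-identity decides how well counts can be told apart. The sequences are from RefSeq on GRCm38.p6, where 7 of 7 members were matched by name, and capitals mark the seed (bases 2 to 8).
miR-29a-3p: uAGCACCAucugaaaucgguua
miR-29b-3p: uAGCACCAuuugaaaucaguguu
miR-29c-3p: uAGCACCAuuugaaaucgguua

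The seed AGCACCA belonged to all 3 guides and to 0 other names among 1679 mature sequences. With positions counted from 1 at the 5′ end, miR-29a-3p and miR-29c-3p differ by 1 base of 22, C10U, with the miR-29a-3p base first. The differences between miR-29c-3p and miR-29b-3p are G18A, U21G and A22U, with the miR-29c-3p base first, and miR-29b-3p is 1 base longer. MiR-29b-3p ends in AGUGUU, the motif reported in human cells to carry it into the nucleus; 2 of the 1679 mature sequences end in this motif, the other one being miR-92b-5p. Reads of the guides that are trimmed or carry an error could be assigned to a neighbour in this family; how the authors' counting treated them is not stated in the labels.

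The 4 passenger arms are shown because, unlike the guides, they separate the hairpins of miR-29b, and they do not share a seed.
miR-29a-5p: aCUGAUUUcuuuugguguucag
miR-29b-1-5p: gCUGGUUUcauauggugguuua
miR-29b-2-5p: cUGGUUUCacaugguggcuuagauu
miR-29c-5p: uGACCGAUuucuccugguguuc

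The family comes from 2 clusters. On GRCm38, Mir29a (chr6:31062660-31062747, minus strand) and Mir29b-1 (chr6:31063023-31063093, minus strand) lie 275 bases apart. Mir29b-2 (chr1:195037040-195037120, plus strand) and Mir29c (chr1:195037547-195037634, plus strand) lie 426 bases apart. In GENCODE vM21 the chromosome 1 pair lies in an exon of the noncoding transcript A330023F24Rik and, on the other strand, opposite an exon of Cd46, a membrane regulator of complement. On the same strand, the 5′ end of Mir29b-1 overlaps the 3′ end of the long noncoding RNA Gm27019, and Mir29a overlaps no other annotated gene. Mature miR-29b-3p is the same molecule from either cluster, so its count cannot be divided between them. The hairpins of Mir29a and Mir29c are shown with the guide in capitals, since each has a guide and a passenger of its own and the balance of these arms was far apart.
Mir29a: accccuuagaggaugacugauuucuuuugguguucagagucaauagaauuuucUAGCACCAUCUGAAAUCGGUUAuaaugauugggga
Mir29c: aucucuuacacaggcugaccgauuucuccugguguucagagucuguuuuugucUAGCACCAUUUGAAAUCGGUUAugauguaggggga

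Total counts ran from 1011285 to 4052174 per library, and levels are given in CPM, the usual unit of counts relative to the size of the library, with sizes scaled over all 31 libraries. Behind them were 14330 to 204560 counts of miR-29a-3p per library, but only 31 to 213 counts of miR-29b-1-5p, the scarcest member. Libraries also stood apart in ways the groups do not explain. The first axis of within-group variation, the leading principal component of log2 CPM after group means were removed, held 38.8% of that variation. WT-water libraries scored between -0.78 and 1.33 on it, and libraries of the other groups between -14.27 and 13.82. The members were part of the data this axis was computed from. A fit with the axis as a term therefore has less spread within groups by construction. A library is named below by its group and replicate number, and WT-water 5 and WT-corticosterone 2 are given apart because their miR-29a-3p was out of step with the other guides. In whole tissue, fewer cells of a type and less RNA per cell cannot be told apart.

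The family was among the most abundant of the hippocampus. It took 9.51% ± 3.66 of all microRNA counts (SD, n = 31), with a range of 4.68% to 15.2% between libraries. By total count miR-29b-3p ranked 2, miR-29a-3p ranked 6 and miR-29c-3p ranked 33 of the 1966 microRNAs. The passengers stood far lower, at rank 128 for miR-29c-5p, 209 for miR-29b-2-5p, 216 for miR-29a-5p and 332 for miR-29b-1-5p. Within the family, miR-29b-3p held 58.2% ± 6.85 of the counts, miR-29a-3p 35.5% ± 6.97 and miR-29c-3p 5.36% ± 1.37 (SD, n = 31). All 4 passengers together held 1.01% ± 0.319. Counts were not divided by length, as the 7 arms are 22 to 25 bases long, and how well each sequence takes the adapters was not tested. The family's mean share of all counts was 7.87% in KO-exercise, 7.41% in KO-corticosterone, 10.5% in KO-water, 8.49% in WT-exercise, 7.84% in WT-corticosterone and 12.6% in WT-water.

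**Figure D1:**
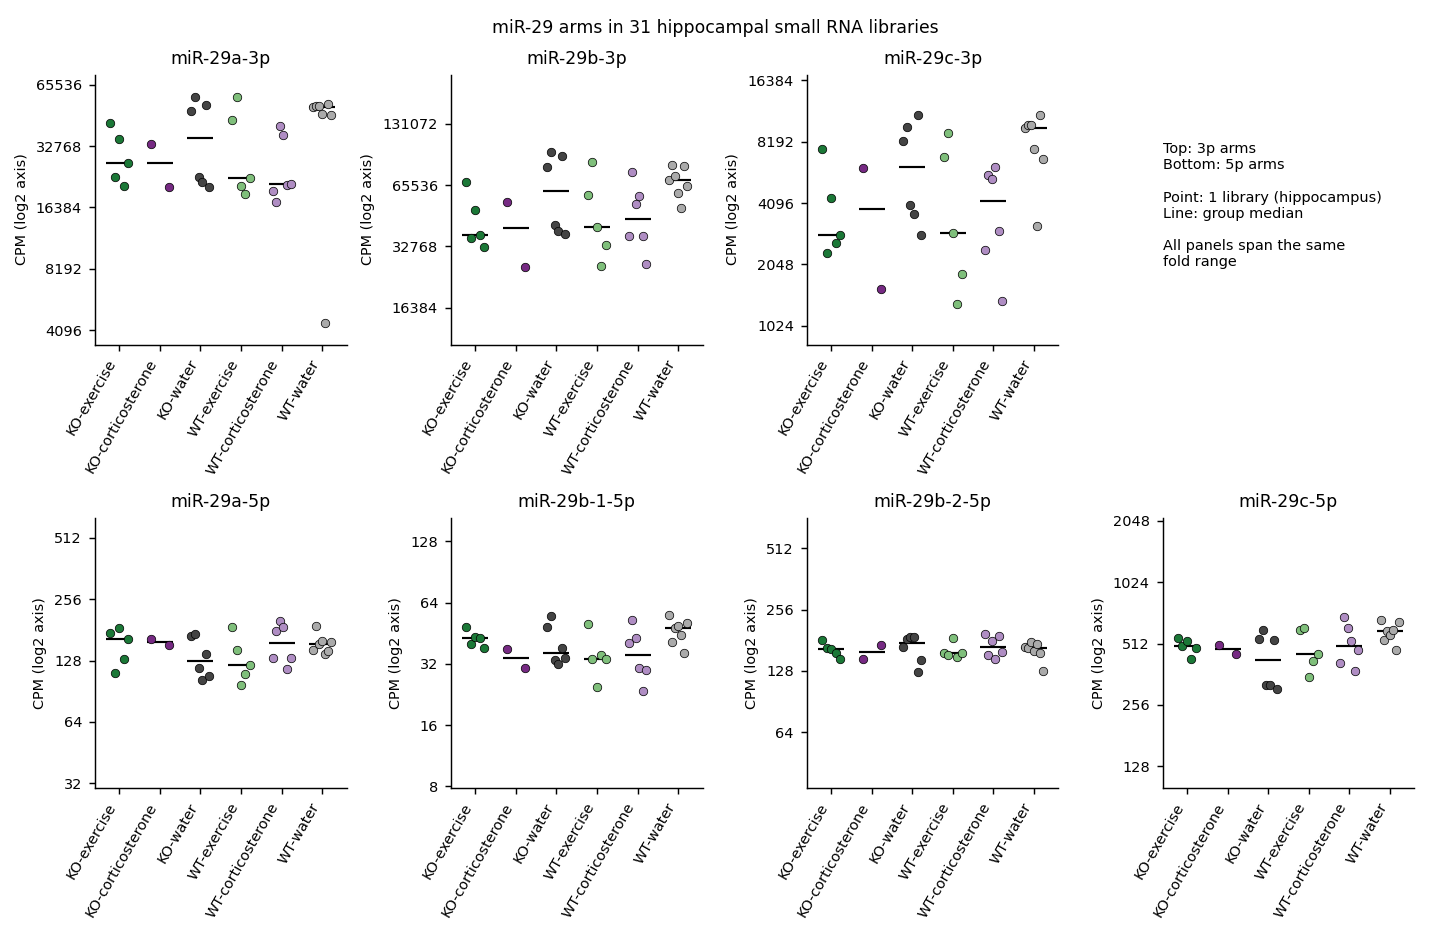
CPM of each miR-29 arm (vertical axis, log2 scale, all panels spanning the same fold range) in 31 libraries by group; points are libraries and lines are group medians. The guides in the top row spread widely inside the KO-water, WT-exercise and WT-corticosterone groups, WT-water 5 lies at 4457 CPM for miR-29a-3p, and miR-29b-2-5p stays between 127 and 194 CPM throughout.

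MiR-29b-3p, the most abundant member, had 67840, 36127, 49599, 37183 and 32705 CPM in KO-exercise 1 to 5, and 54184 and 26071 CPM in KO-corticosterone 1 and 2. In KO-water it ranged from 37663 to 94747 CPM with a median of 61292. It had 58551, 84660, 40650, 26302 and 33295 CPM in WT-exercise 1 to 5. Each of these groups held libraries within the range of WT-water and others below it. KO-water 2 and 5 and WT-exercise 2 lay above it. WT-corticosterone ranged from 26807 to 76183 CPM with a median of 44883, and WT-water from 50569 to 82374 with a median of 69128. No WT-water library was below 50569 CPM, and WT-water was the tightest of the 6 groups in relative terms, its highest library being 1.63 times its lowest.

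MiR-29a-3p had 42335, 23085, 35560, 20932 and 27038 CPM in KO-exercise 1 to 5, and 33482 and 20563 CPM in KO-corticosterone 1 and 2. KO-water ranged from 20659 to 57076 CPM with a median of 35905. WT-exercise 1 to 5 had 43901, 57390, 20800, 19155 and 22788 CPM. The high and low libraries were mostly those that were high and low for miR-29b-3p. WT-corticosterone ranged from 17504 to 41057 CPM with a median of 21314. In WT-water, 6 of the 7 libraries lay between 46615 and 52919 CPM, and WT-water 5 had 4457 CPM.

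MiR-29c-3p, the scarcest guide, moved over the widest relative range once WT-water 5 is set aside for miR-29a-3p. It had 7519, 2340, 4358, 2606 and 2842 CPM in KO-exercise 1 to 5, and 6076 and 1555 CPM in KO-corticosterone 1 and 2. KO-water ranged from 2863 to 11068 CPM with a median of 6153. WT-exercise 1 to 5 had 6927, 9007, 2910, 1305 and 1838 CPM. Here too the treated groups and KO-water each held high and low libraries. WT-corticosterone ranged from 1355 to 6143 CPM with a median of 4189, and WT-water from 3168 to 11110 with a median of 9575. The lowest of these was WT-water 5, and the next lowest WT-water library had 6776 CPM.

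The order of group means was led by WT-water, KO-water and WT-exercise, in this order, for all 3 guides. For miR-29c-3p the means were 3933 ± 2152 CPM in KO-exercise, 3816 ± 3197 in KO-corticosterone, 6591 ± 3515 in KO-water, 4397 ± 3390 in WT-exercise, 3990 ± 1990 in WT-corticosterone and 8285 ± 2700 in WT-water (SD). No 2 groups next to each other in the order of any of the 7 members differed by more than the larger of their SDs.

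The passengers varied less. MiR-29c-5p averaged 497 ± 45.3 CPM in KO-exercise, 480 ± 34.5 in KO-corticosterone, 435 ± 133 in KO-water, 486 ± 114 in WT-exercise, 514 ± 121 in WT-corticosterone and 583 ± 66.2 in WT-water (SD). MiR-29a-5p had group means of at most 158 CPM, and miR-29b-1-5p between 34.2 and 46.5 CPM. MiR-29b-2-5p was the steadiest member, with group means between 159 and 170 CPM. Over all 31 libraries its highest value was 1.53 times its lowest, against 2.07 for miR-29a-5p, 2.27 for miR-29c-5p, 2.37 for miR-29b-1-5p, 3.63 for miR-29b-3p, 8.51 for miR-29c-3p and 12.9 for miR-29a-3p. Among the 310 microRNAs averaging at least 50 CPM, the SD of log2 CPM had a median of 0.43. MiR-29c-3p, with 0.95, ranked 14 from the top, and miR-29b-2-5p, with 0.16, ranked 309.

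The guides varied together across libraries, and the arms of a hairpin less closely. The following correlations of log2 CPM over the 31 libraries are descriptions without a test; the points share library depth, scaling and the axis of within-group variation. Pearson's r between miR-29b-3p and miR-29c-3p was 0.96 (Spearman's rho 0.95), and 0.95 after group means were removed. Between miR-29a-3p and miR-29b-3p r was 0.63 (rho 0.77), and between miR-29a-3p and miR-29c-3p it was 0.73 (rho 0.85). Without WT-water 5 and WT-corticosterone 2, which are also the libraries farthest from the median of miR-29a-3p, these became 0.94 and 0.93 (n = 29). Between the arms of a hairpin r was 0.48 for miR-29a and 0.56 for miR-29c, and without the same pair of libraries 0.69 and 0.60. MiR-29b-2-5p had a slightly negative r with each of the other members, between -0.13 and -0.29. Against the axis of within-group variation, the deviations of the members had r between 0.54 (miR-29a-3p) and 0.90 (miR-29c-5p), except -0.29 for miR-29b-2-5p.

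**Figure D2:**
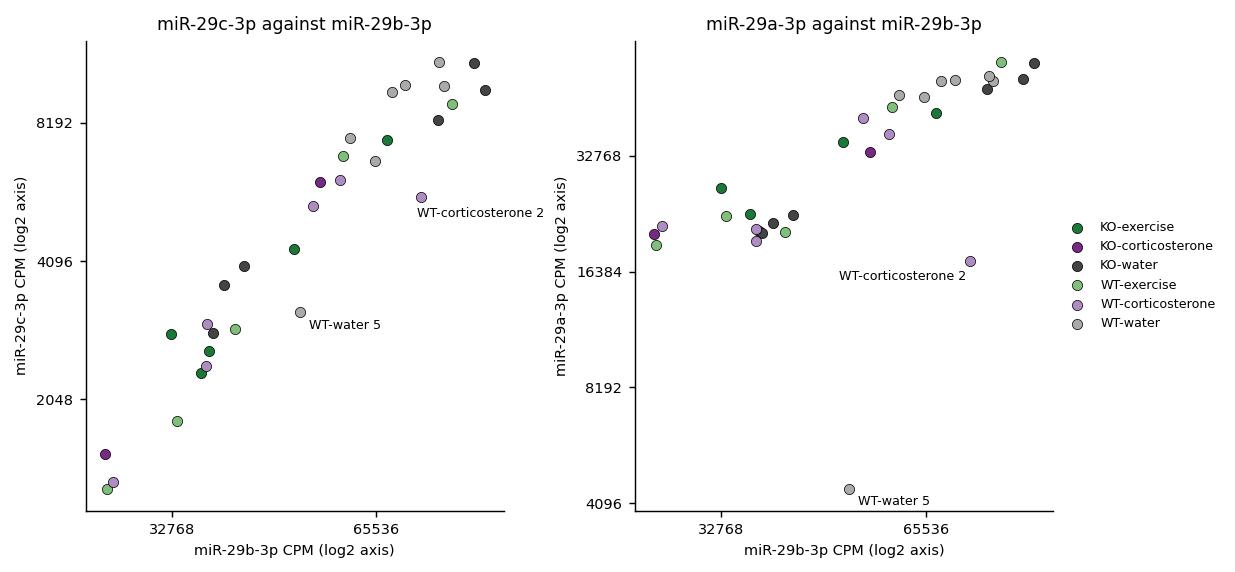
CPM of miR-29c-3p (left) and miR-29a-3p (right) against CPM of miR-29b-3p, both axes on a log2 scale; each point is 1 of 31 libraries, coloured by group. MiR-29c-3p follows miR-29b-3p with r of 0.96 across all groups, while on the right WT-water 5 (4457 CPM) and WT-corticosterone 2 (17504 CPM) lie below the other libraries.

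In WT-water 5, miR-29a-3p was 3.52 log2 units below the median of the other WT-water libraries, the lowest deviation of the 310 microRNAs averaging at least 50 CPM, and the only one of 2 units or more. MiR-29c-3p was 1.62 units below, the second lowest, miR-29b-3p 0.48 units below and miR-29a-5p, the partner arm of the same hairpin, 0.18 units below. The low value stood in the guide and not in its passenger. In WT-corticosterone 2, miR-29b-3p was 1.05 and miR-29c-3p 0.92 log2 units above the median of the other WT-corticosterone libraries, while miR-29a-3p was 0.29 units below. The ratio of miR-29b-3p to miR-29a-3p counts was 11.3 in WT-water 5 and 4.35 in WT-corticosterone 2, with a median of 1.56 over all libraries.

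The balance of the arms differed between hairpins and between libraries. Per count of miR-29a-5p there was a group median of 194 counts of miR-29a-3p in KO-exercise, 170 in KO-corticosterone, 251 in KO-water, 214 in WT-exercise, 173 in WT-corticosterone and 298 in WT-water. The hairpin of miR-29c was far less one-sided. Its guide outnumbered its passenger by group medians of 6.07 in KO-exercise, 7.74 in KO-corticosterone, 14.0 in KO-water, 8.34 in WT-exercise, 8.06 in WT-corticosterone and 14.3 in WT-water, with a range of 2.86 to 23.2 over libraries. For miR-29b, counts of the guide over those of both passengers had group medians of 186 in KO-exercise, 212 in KO-corticosterone, 291 in KO-water, 194 in WT-exercise, 205 in WT-corticosterone and 320 in WT-water. The water groups had the higher medians for miR-29a, miR-29b and miR-29c, with overlapping ranges, and these ratios were not tested. Each KO-water median lay between lower values in KO-water 3, 4 and 6 and higher values in KO-water 1, 2 and 5. KO-water 3, 4 and 6 were below the highest median of a treated group for miR-29a (214) and miR-29b (212). KO-water 1, 2 and 5 had at least 288 for miR-29a and 373 for miR-29b. For miR-29c, KO-water 3, 4 and 6 had 9.35 to 12.5, and KO-water 1, 2 and 5 had 15.5 to 20.9. The SD of the log2 arm ratio was 0.82 for miR-29c and 0.69 for miR-29a, ranks 12 and 18 of 65 hairpins with both arms averaging at least 50 CPM, whose median was 0.47. The miR-29a value leans on WT-water 5, whose ratio was 32.3, while the next lowest was 97.9 in WT-corticosterone 2. Its rank was not determined without WT-water 5. Of the miR-29b passengers, miR-29b-2-5p from chromosome 1 had 4.3 ± 1.24 counts for each count of miR-29b-1-5p from chromosome 6 (SD, n = 31).

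**Figure D3:**
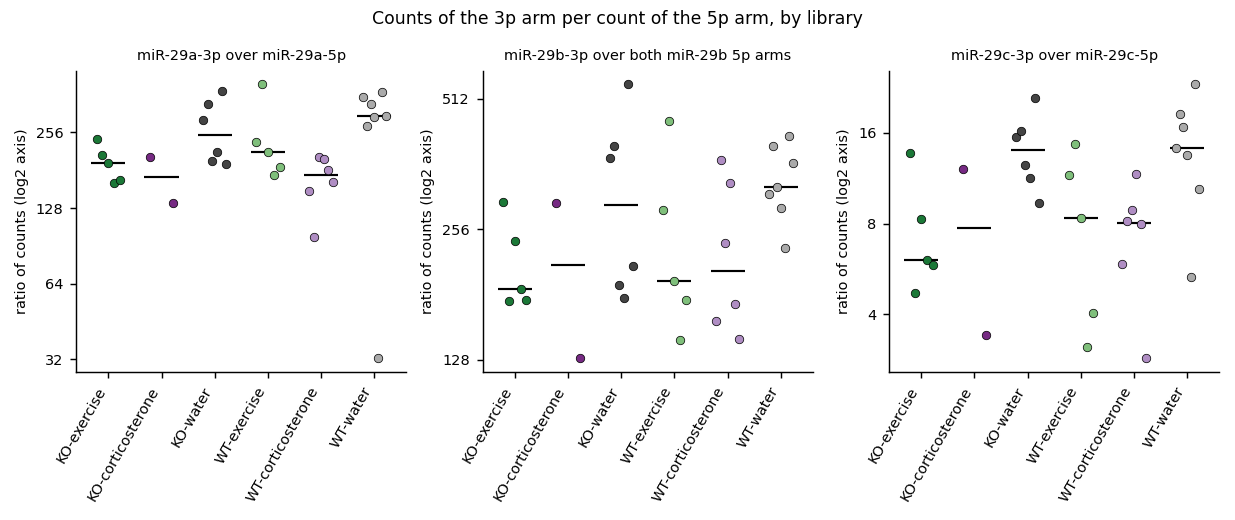
Counts of the guide per count of its passenger (vertical axis, log2 scale) for miR-29a, miR-29b (both 5p arms summed) and miR-29c; points are libraries and lines group medians. WT-water 5 is at 32.3 for miR-29a where the WT-water median is 298, and miR-29c runs from 2.86 to 23.2.

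Exercise in wildtype mice was compared with water in 5 against 7 libraries. The guides had lower group means, but no member passed the test. Of the 553 microRNAs tested, 32.5% were called at an adjusted p below 0.05 by edgeR's quasi-likelihood test with Benjamini-Hochberg adjustment, 19.9% higher and 12.7% lower; of the 7 miR-29 arms, 0 were. The log2 fold change (± SE) was -0.92 ± 0.43 for miR-29c-3p (edgeR adjusted p = 0.11), -0.49 ± 0.24 for miR-29b-3p (edgeR adjusted p = 0.132) and -0.40 ± 0.45 for miR-29a-3p (edgeR adjusted p = 0.486). WT-exercise 3, 4 and 5 were below every WT-water library for miR-29b-3p and miR-29c-3p, while WT-exercise 1 and 2 lay within its range or, for miR-29b-3p in WT-exercise 2, above it. The passengers had log2 fold changes between -0.36 ± 0.19 (miR-29b-1-5p) and 0.02 ± 0.13 (miR-29b-2-5p), with edgeR adjusted p of 0.147 or more.

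The value in wildtype exercise differed with single libraries and between code letters of the sample names, G or H, whose meaning the labels do not give. The letter and single libraries cannot be told apart here. WT-exercise 1 and 2, the high libraries, carry G, but so does WT-exercise 3, which was low like WT-exercise 4 and 5 with H. With the letter as a factor no member was called, and 27.5% of all microRNAs were. The splits by letter were not among the planned settings. Among libraries with letter H (2 against 2), the log2 fold change was -2.41 for miR-29c-3p, -1.20 for miR-29b-3p and -1.16 for miR-29a-3p, with edgeR adjusted p of 0.0054, 0.0181 and 0.0142, and 37.9% of all microRNAs were called. Among those with letter G (3 against 5), it was -0.34, -0.10 and -0.01 in the same order, and none of the 3 was called. Without WT-exercise 2, miR-29c-3p fell by 1.33 and miR-29b-3p by 0.75 on the log2 scale (edgeR adjusted p = 0.015 and 0.00802), when 48.8% of all microRNAs were called. Without WT-exercise 1, miR-29b-1-5p (-0.57) and miR-29a-5p (-0.42) were called instead (edgeR adjusted p = 0.0297 and 0.0474), when 38.3% of all were. With that first axis of variation as a term of the model, miR-29c-3p (-1.17), miR-29b-3p (-0.56) and miR-29c-5p (-0.26) were called lower (edgeR adjusted p = 0.0124, 0.00641 and 0.0408), among 51% of all microRNAs called. The p-values of this and every other fit with the axis are too small, since the axis was drawn from the same deviations.

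Corticosterone in wildtype mice was compared with water in 6 against 7 libraries, and here miR-29c-3p fell. Its mean was 3990 ± 1990 CPM in WT-corticosterone, against 8285 ± 2700 CPM in WT-water (SD), with a log2 fold change of -1.02 ± 0.33 (edgeR adjusted p = 0.0214). It was the only member called, among 41.9% of 547 microRNAs called in either direction and 17% called lower, a background that 1 of 7 does not exceed. WT-corticosterone 1, 5 and 6 lay below every WT-water library for miR-29c-3p and miR-29b-3p, and WT-corticosterone 2, 3 and 4 lay within the range of WT-water. The low end of that range was WT-water 5 for both guides. For miR-29c-3p the next lowest, WT-water 7 with 6776 CPM, was above every WT-corticosterone library, the highest of which had 6143 CPM. For miR-29b-3p the next lowest, WT-water 4 with 59900 CPM, was above all WT-corticosterone libraries except WT-corticosterone 2 with 76183 CPM. MiR-29b-3p had a log2 fold change of -0.48 ± 0.20 (edgeR adjusted p = 0.0607) and miR-29a-3p of -0.67 ± 0.40 (edgeR adjusted p = 0.188). The passengers had values between -0.30 ± 0.18 (miR-29b-1-5p) and 0.14 ± 0.13 (miR-29b-2-5p), with edgeR adjusted p of 0.185 or more.

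The call of miR-29c-3p was lost without WT-water 6 (log2 fold change -0.99, edgeR adjusted p = 0.0518), with no filter on low counts (-1.05, 0.101), in a joint fit of all 6 groups (-1.05, 0.0774) and among libraries with letter G (-0.85, 0.084). With no filter miR-29b-3p was called in its place, when 14% of 1456 microRNAs were called. Letter H held 1 WT-corticosterone library, too few for a value of its own. Without WT-water 5, whose miR-29a-3p was so low, miR-29a-3p fell by 0.93 and miR-29b-3p by 0.59 (edgeR adjusted p = 0.00433 and 0.0434), and 37.9% of all microRNAs were called. Without WT-water 5 and WT-corticosterone 2, 4 members were lower: miR-29c-3p (-1.31), miR-29a-3p (-0.83), miR-29b-3p (-0.75) and miR-29b-1-5p (-0.49), with edgeR adjusted p from 0.00338 to 0.0396, when 50.7% of all were called and 25.4% were lower. This pair of libraries was left out after their values had been seen. With the axis as a term, miR-29c-3p (-1.12) and miR-29b-3p (-0.54) were lower (edgeR adjusted p = 0.00453 and 0.0013), when 51.4% of all were called.

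**Figure D4:**
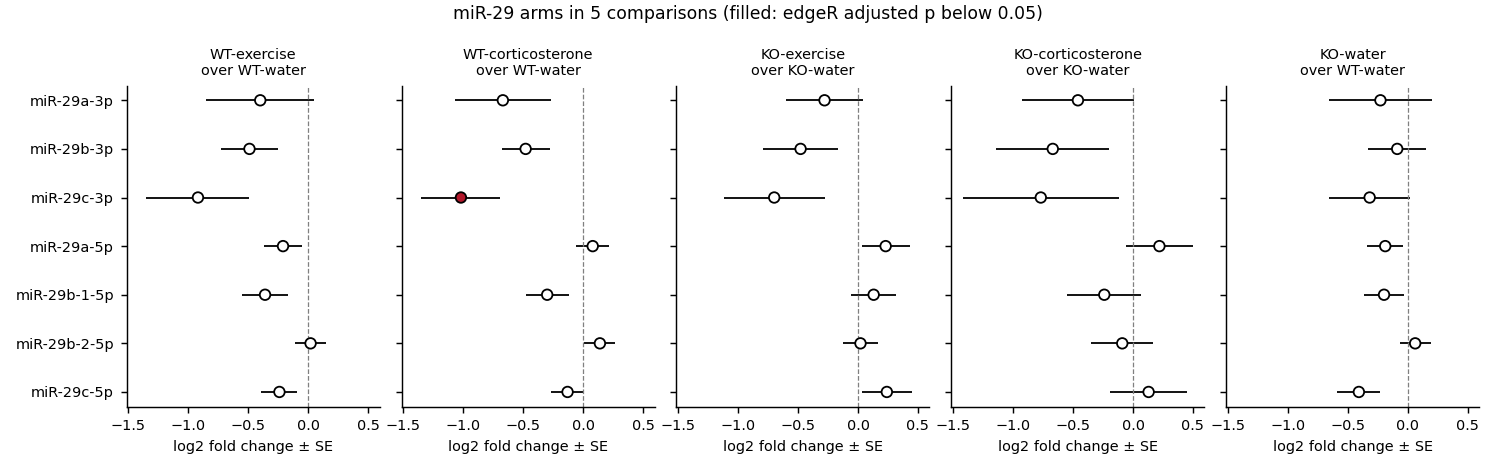
Log2 fold change with its SE (horizontal axis) for the 7 miR-29 arms in 5 comparisons; filled points have an edgeR adjusted p below 0.05. The filled point is miR-29c-3p in WT-corticosterone over WT-water (-1.02 ± 0.33), and all other points are open.

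Exercise in transporter knockouts was compared with water in 5 against 6 libraries. No member passed the test, where 4.02% of 523 microRNAs did by edgeR, 3.06% higher and 0.956% lower. The log2 fold changes were -0.70 ± 0.42 for miR-29c-3p, -0.48 ± 0.31 for miR-29b-3p and -0.28 ± 0.32 for miR-29a-3p (edgeR adjusted p = 0.448, 0.485 and 0.727). The passengers were between 0.02 ± 0.15 (miR-29b-2-5p) and 0.24 ± 0.21 (miR-29c-5p), with edgeR adjusted p of 0.623 or more. Within letter G (3 against 4) the guides had -0.35, -0.25 and -0.09 in the order miR-29c-3p, miR-29b-3p and miR-29a-3p, and within letter H (2 against 2) -1.44, -0.96 and -0.68, none called. With the axis as a term, miR-29c-3p (-0.64) and miR-29b-3p (-0.40) were lower and miR-29c-5p (0.29) higher (edgeR adjusted p = 0.00915, 0.022 and 0.0392), when 24.1% of all were called. Corticosterone in knockouts had 2 libraries against 6, and 0.521% of 576 microRNAs were called, none of them a miR-29 arm. The guides had log2 fold changes of -0.77 ± 0.65 (miR-29c-3p), -0.67 ± 0.47 (miR-29b-3p) and -0.46 ± 0.47 (miR-29a-3p), with edgeR adjusted p of 0.822 or more. KO-corticosterone 1 lay inside the range of KO-water for all 3 guides and KO-corticosterone 2 below it. Both KO-corticosterone libraries carry letter H.

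Both knockout comparisons rest on KO-water, which held 2 sets of libraries. KO-water 3, 4 and 6 are in the deposited table that pairs KO-water with WT-water, and KO-water 1, 2 and 5 are not. MiR-29b-3p averaged 39509 ± 2085 CPM in KO-water 3, 4 and 6 and 88939 ± 7250 CPM in KO-water 1, 2 and 5 (SD, n = 3 each). MiR-29a-3p averaged 21860 ± 1184 and 52621 ± 4180 CPM in the same sets, miR-29c-3p 3501 ± 582 and 9681 ± 1382, and miR-29c-5p 316 ± 8.58 and 555 ± 37.9. MiR-29a-5p averaged 109 ± 7.29 and 160 ± 18.8 CPM, and miR-29b-1-5p 33.1 ± 1.19 and 47.2 ± 8.41 CPM. For these 6 of 7 members every value of KO-water 3, 4 and 6 was below every value of KO-water 1, 2 and 5. Of 545 microRNAs the sets did not overlap for 63.7%, and KO-water 3, 4 and 6 were the lower ones for 33.8%. No label states a reason for the sets, and they were not tested against each other. MiR-29b-2-5p did overlap, with 173 ± 24.2 and 159 ± 29 CPM.

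The choice of set changed the sign of the guides. Against KO-water 3, 4 and 6 alone, KO-exercise had log2 fold changes of 0.38 for miR-29a-3p, 0.11 for miR-29b-3p and 0.10 for miR-29c-3p, none called, while miR-29c-5p was higher by 0.59 (edgeR adjusted p = 0.00616), among 32.8% of microRNAs called. Against KO-water 1, 2 and 5 alone, all 3 guides were lower in KO-exercise, with -0.81 for miR-29a-3p, -0.99 for miR-29b-3p and -1.29 for miR-29c-3p (edgeR adjusted p = 0.0285, 0.0173 and 0.0227), among 21.7% called. In KO-corticosterone, miR-29c-5p was higher by 0.59 against KO-water 3, 4 and 6 (edgeR adjusted p = 0.0323, with 19.2% of all called), and no member was called against KO-water 1, 2 and 5, when 7.08% of all were.

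Genotype under water was compared in 6 KO-water and 7 WT-water libraries. By edgeR, 0 of 545 microRNAs were called, a share of 0%, while 179 had an unadjusted p below 0.05 and DESeq2 called 115. The miR-29 arms had log2 fold changes between -0.41 ± 0.18 for miR-29c-5p (edgeR adjusted p = 0.125) and 0.06 ± 0.13 for miR-29b-2-5p (edgeR adjusted p = 0.739). For the guides they were -0.32 ± 0.34 (miR-29c-3p), -0.23 ± 0.43 (miR-29a-3p) and -0.09 ± 0.24 (miR-29b-3p). With KO-water 3, 4 and 6 alone, 4 members were lower than in WT-water: miR-29c-3p (-1.07), miR-29c-5p (-0.71), miR-29b-3p (-0.62) and miR-29a-5p (-0.33), with edgeR adjusted p from 0.000146 to 0.0354. In that fit 60.9% of all microRNAs were called, and 27.9% were lower. With KO-water 1, 2 and 5 alone, 0 members and 0 of 587 microRNAs were called by edgeR, and the guides had 0.25 (miR-29a-3p), 0.36 (miR-29b-3p) and 0.21 (miR-29c-3p).

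Between genotypes after exercise, the members had log2 fold changes between -0.15 and 0.28 in KO-exercise over WT-exercise, with edgeR adjusted p of 0.999 for all 7. Of 517 microRNAs 0 were called, a share of 0%, by edgeR, and 5 had an unadjusted p below 0.05. Whether the response depended on genotype was tested as an interaction. For exercise the interaction of the members lay between -0.08 ± 0.18 (miR-29b-2-5p) and 0.42 ± 0.25 (miR-29b-1-5p), with 0 of 571 microRNAs called by edgeR and 101 at an unadjusted p below 0.05. For corticosterone it lay between -0.15 ± 0.48 (miR-29b-3p) and 0.33 ± 0.32 (miR-29c-5p), with 0 of 630 called and 65 at an unadjusted p below 0.05. With KO-water 3, 4 and 6 alone, 3 passengers were called with a positive exercise interaction, miR-29c-5p (0.88), miR-29b-1-5p (0.71) and miR-29a-5p (0.68), with edgeR adjusted p of 0.00502, 0.0372 and 0.0425, when 42.3% of 596 microRNAs were called. In the corticosterone interaction miR-29c-5p was called with the same libraries (0.79, edgeR adjusted p = 0.0257), when 34% of 626 microRNAs were. Comparisons of exercise and of corticosterone within a genotype share their water libraries.

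The microRNAs whose levels were most like those of the guides were picked from 304 others averaging at least 50 CPM, by Pearson's r of log2 CPM over the 31 libraries. For miR-29b-3p they were miR-181c-5p (0.89), miR-338-3p (0.89) and miR-341-3p (0.88). For miR-29c-3p they were miR-341-3p (0.86), miR-181c-5p (0.85) and miR-338-3p (0.85). For miR-29a-3p, r was at most 0.57, for miR-341-3p, miR-30d-5p and miR-154-5p. WT-water 5 and WT-corticosterone 2 are among these libraries. Without them miR-29a-3p had r of 0.94 with miR-29b-3p and 0.93 with miR-29c-3p, and the search was not repeated without them. After group means were removed, miR-29b-3p was most like miR-9-3p, miR-598-3p and miR-338-3p (0.91 each). MiR-29c-3p was then most like miR-361-5p (0.89), miR-9-3p (0.87) and miR-598-3p (0.86), and miR-29a-3p like miR-361-5p (0.61), miR-30d-5p (0.60) and miR-341-3p (0.59).

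MiR-338-3p is also the most abundant of 4 oligodendrocyte markers. The summed level of that list was 2304 to 4747 CPM in KO-exercise, 2206 to 3611 in KO-corticosterone, 2189 to 6058 in KO-water, 2171 to 6998 in WT-exercise, 2202 to 6952 in WT-corticosterone and 5860 to 7639 in WT-water. Of the 4, only miR-338-3p was called lower in the wildtype comparisons, with -1.13 ± 0.31 for exercise (edgeR adjusted p = 0.0153) and -1.13 ± 0.26 for corticosterone (edgeR adjusted p = 0.00356). The other 3 were not called and had no common sign, with -0.54 and -1.09 for miR-219a-5p, -0.27 and -0.10 for miR-219a-2-3p and 0.28 and 0.28 for miR-338-5p in the same order. Over all microRNAs tested, 19.9% were called higher and 12.7% lower in WT-exercise, and 24.9% and 17% in WT-corticosterone. Of 6 microglia and immune markers, 3 were higher in WT-exercise and 4 in WT-corticosterone. Their summed levels were 2782 to 10907 CPM in WT-exercise and 2801 to 8358 in WT-corticosterone, against 2445 to 3466 in WT-water. The most abundant of these was miR-150-5p. Of 6 neuron markers, led by miR-124-3p, 1 was higher and 1 lower in WT-exercise, and 2 higher and 1 lower in WT-corticosterone. Their summed level was 370422 to 461492 CPM in WT-exercise and 354416 to 457976 in WT-corticosterone, against 347194 to 437804 in WT-water, which made it the highest of the marker lists in each group. Of 4 vessel markers, led by miR-126a-3p, 2 were higher in each wildtype comparison. Of 4 choroid plexus markers, 1 was higher in each, miR-449a-5p, and the most abundant was miR-204-5p. MiR-449a-5p is also among the microRNAs reported to target chromatin regulators, described below. So are miR-124-3p, miR-9-5p and miR-138-5p of the neuron list and miR-143-3p of the vessel list. Of 3 red blood cell markers, led by miR-451a, 1 was lower in WT-exercise, and 1 higher and 1 lower in WT-corticosterone. In KO-exercise, where 3.06% of all microRNAs were higher, 2 of the 6 microglia and immune markers were higher and no other marker was called. No marker of any list was called in KO-corticosterone or KO-water, and none was at 0 in any library. The part of these markers in the miR-29 values was not tested.

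MiR-29 is 1 of several microRNA families reported to target chromatin regulators, and the others were described from a list of 16. Over all microRNAs tested, 19.9% were higher and 12.7% lower in WT-exercise, with a median log2 fold change of 0.04. Of the 16, 6 were higher and 0 lower, with a median of 0.35. Among them were miR-152-3p (1.83 ± 0.33), reported to target Dnmt1, miR-449a-5p (1.28 ± 0.26), reported to target Hdac1, and miR-26a-5p (0.93 ± 0.22) and miR-26b-5p (0.68 ± 0.18), reported to target Ezh2. In WT-corticosterone, where 24.9% of all microRNAs were higher and 17% lower, 8 of the list were higher and 2 lower. The median was 0.23 beside 0.06 over all tested. Among those with the largest changes there were miR-152-3p (1.86 ± 0.29), miR-449a-5p (1.17 ± 0.20), miR-22-3p (-1.13 ± 0.23), reported to target Tet2, miR-26a-5p (1.00 ± 0.17) and miR-26b-5p (0.73 ± 0.18). In KO-exercise, where 3.06% of all microRNAs were higher, 2 of the list were, among them miR-26b-5p (0.84 ± 0.18). The median was 0.37 beside -0.01 over all. None was called in KO-corticosterone, with a median of 0.02 beside -0.12, or in KO-water over WT-water, with 0.08 beside -0.08. The most abundant of the list, miR-124-3p, had 0.04 ± 0.15 in WT-exercise and 0.11 ± 0.15 in WT-corticosterone, and the next, miR-9-5p, 0.04 ± 0.20 and 0.05 ± 0.19 in the same order.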

How the data were processed

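Small RNA from 31 right hippocampi was enriched, ligated to adapters (Ion Total RNA-Seq Kit v2) and sequenced on an Ion Torrent S5, per the labels' protocols. The values are raw read counts per mature microRNA in 5 deposited tables (1966 rows, 391 of them without a count in any library). The tools BWA, cutadapt 2.3, featureCounts, Subread and limma 3.54.1 and the GRCm38 (mm10) build are listed in the submitters' processing notes, with no role or order. Whether strand was used, and how reads matching several arms were treated, is not stated in the labels. Libraries in several tables had identical counts. All columns were matched to samples by the labelled code, and the number of other columns was 0. The deposited table that sets KO-water against WT-water also holds 1 column of a KO-exercise animal by the labels, which was used as KO-exercise.

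Each comparison was fitted on its own groups with edgeR 4.0.16 in R 4.3.3 (filterByExpr by group, TMM, estimateDisp, robust glmQLFit, quasi-likelihood F test), with Benjamini-Hochberg adjustment over all microRNAs tested and a threshold of 0.05. Interactions used the 4 groups involved. SEs were derived from F. CPM were scaled by TMM over all 31 libraries. Scripts were tested on simulated data. No pair of libraries in a group agreed within sampling noise (lowest chi-square per degree of freedom 16.1). P-values weigh the difference between groups against the spread between libraries.

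Other settings were DESeq2 1.42.0, its size factors, no scaling factors, no filter or a filter at a mean of 10 CPM, the 6 groups fitted jointly, the replicate number, code letter or axis as a term, both sets of KO-water and leaving out each library. Named were all 7 members, the 3 microRNAs most like each guide, of the chromatin list up to 6 called and the 2 most abundant (some of these are not reported here), and of the marker lists the most abundant. The members and lists were chosen with earlier results of these data known.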

Additional observations from a re-analysis of the deposited data

Results flagged for a closer look

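Values of 4 libraries and members stood far from the rest of their group by Dixon's criterion, the gap to the nearest library divided by the range of the group, out of 35 sets of 1 member in 1 group that were looked at; chance gives about 1 in 20. MiR-29a-3p was 4457 CPM in WT-water 5, with a gap of 0.87 of the range against a critical value of 0.568. MiR-29b-2-5p was 185.2 CPM in WT-exercise 3, with 0.823 against 0.71, and 127.8 CPM in WT-water 7, with 0.569 against 0.568. MiR-29a-5p was 189.3 CPM in WT-water 2, with 0.579 against 0.568.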

How the results depend on the processing

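The count of miR-29 arms called moved with several settings. In wildtype corticosterone, where 1 was called, it was 2 with DESeq2 (which called 45.2% of all microRNAs), with DESeq2 size factors in edgeR (41.7%), with no scaling factors (41%) and with the main axis of variation inside groups as a term (51.4%), beside 41.9% in the reported fit, and 4 without WT-water 5 and WT-corticosterone 2. It was 0 in the joint fit of all 6 groups and among letter G libraries. Leaving out 1 library at a time gave 0 (without WT-water 6) to 3 (without WT-water 5 or, with 52.4% of all called, without WT-corticosterone 2). In wildtype exercise, where 0 were called, the axis gave 3 (miR-29b-3p -0.56, miR-29c-3p -1.17, miR-29c-5p -0.26), letter H 3, and leaving out 1 library 0 to 2 (2 without WT-exercise 1 or 2). Elsewhere the main count was 0. In knockout exercise the axis gave 3 (miR-29b-3p -0.40, miR-29c-3p -0.64, miR-29c-5p 0.29), KO-water 3, 4 and 6 alone 1, and KO-water 1, 2 and 5 alone 3. In knockout corticosterone KO-water 3, 4 and 6 alone gave 1; in KO-water over WT-water they gave 4 and the axis gave 1 (miR-29c-5p -0.46, with 47.2% of all microRNAs called). The exercise interaction had 3 with KO-water 3, 4 and 6 alone and 1 with the axis (28.5% of all microRNAs called), and the corticosterone interaction had 1 with KO-water 3, 4 and 6 alone. No member of KO-exercise over WT-exercise was called under any of 21 settings. Apart from the construction of each setting, the cause was not tested.

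Signs turned mainly in values near 0 and with the set of KO-water. With KO-water 3, 4 and 6 alone, knockout exercise had 0.38 (miR-29a-3p), 0.11 (miR-29b-3p), 0.10 (miR-29c-3p) and -0.15 (miR-29b-2-5p), and knockout corticosterone 0.29 (miR-29a-3p), 0.0007 (miR-29b-3p), 0.10 (miR-29c-3p) and 0.03 (miR-29b-1-5p). With KO-water 1, 2 and 5 alone, knockout exercise had -0.06 (miR-29a-5p), -0.13 (miR-29b-1-5p) and -0.15 (miR-29c-5p), knockout corticosterone -0.02 (miR-29a-5p) and -0.22 (miR-29c-5p), and KO-water over WT-water 0.25 (miR-29a-3p), 0.36 (miR-29b-3p), 0.21 (miR-29c-3p), 0.03 (miR-29a-5p) and -0.03 (miR-29b-2-5p). The sign of miR-29b-2-5p was not settled. In knockout exercise it had -0.05 with DESeq2, -0.06 with its size factors in edgeR, -0.05 in letter G, -0.03 in the joint fit, -0.05 at a mean of 10 CPM, -0.06 with no filter, and -0.05 to 0.06 without 1 library. In wildtype exercise it had -0.01 in the joint fit, -0.05 with no filter, -0.10 with no scaling factors, and -0.04 to 0.07 without 1 library. In knockout corticosterone it had 0.15 in letter H, 0.14 with the letter as a factor, 0.08 with no scaling factors, and -0.19 to 0.01 without 1 library. In KO-water over WT-water it had -0.08 with no scaling factors. MiR-29a-5p in wildtype corticosterone had -0.03 without WT-water 5 and WT-corticosterone 2, -0.05 with no scaling factors, and -0.08 to 0.12 without 1 library. MiR-29b-3p in KO-water over WT-water had -0.23 to 0.06 without 1 library, above 0 without KO-water 3, 4 or 6.

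Replicate numbers showed no regular pairing of libraries. The deviations of same-numbered libraries correlated between -0.54 and 0.53, and in no comparison was every pair above 0.1. In knockout exercise 3 of 5 pairs were. These deviations also carry the axis of variation inside groups, so the check cannot exclude a pairing. With the replicate number as a block, 0 members were called in wildtype corticosterone (miR-29c-3p -1.10, edgeR adjusted p = 0.0504) and 2 in knockout corticosterone (miR-29b-3p -1.18, miR-29c-3p -1.50, with 13.5% of all microRNAs called). Under the block miR-29b-2-5p had -0.05 in wildtype exercise and -0.0008 in knockout exercise, and knockout corticosterone had -0.07 (miR-29a-5p) and -0.20 (miR-29c-5p).

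Over all microRNAs, the count called in wildtype exercise (180) was 38 with the replicate block, 282 with the axis, 10 in letter G and up to 274 without 1 library, and in wildtype corticosterone (229) it was 135 in letter G. In knockout exercise (21) it was 38 with DESeq2, 40 in the joint fit, 126 with the axis, 177 with KO-water 3, 4 and 6 and 118 with KO-water 1, 2 and 5, but 11 with no filter, 8 with the block, 3 in letter G and 1 in letter H. In knockout corticosterone (3) it was 8 with DESeq2 and in the joint fit, 78 with the block, 30 with the axis, 40 with KO-water 1, 2 and 5 and 0 in letter H. In KO-water over WT-water (0) it was 115 with DESeq2, 26 with its size factors, 23 with no filter, 42 at a mean of 10 CPM, 69 in the joint fit, 257 with the axis and 354 with KO-water 3, 4 and 6. It ran from 0 to 161 without 1 library. The exercise interaction (0) had 6 with DESeq2, 28.5% of 571 with the axis and 252 with KO-water 3, 4 and 6, and the corticosterone interaction (0) had 17.1% of 630 with the axis and 213 with KO-water 3, 4 and 6. Where leaving out a library left 1 KO-corticosterone animal, it was assumed to vary like the other groups. MiR-29b-1-5p, with 31 to 213 counts per library, was limited most by depth.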
